A study of Homo sapiens with 3 samples.

Results

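The m6A regions described here lie in the duplicated sequence on both sides of the centromere and heterochromatin of chromosome 9. They were defined by position in hg19, as every region of the deposited list, on either strand, with its midpoint in either block of chromosome 9. The blocks run from 38.8 to 47.4 Mb (called the 9p-side block here) and from 65.4 to 71 Mb (the 9q-side block). This gave 217 regions of the 41836 in the list, 43 in the 9p-side block and 174 in the 9q-side block. The definition was made with earlier results of these data known and named a dense minus-strand cluster in the 9q-side block. The size, strand and density of that cluster are therefore description only. The list came from nuclear RNA of MDA-MB-231, a long-established line of human breast cancer cells, untreated as far as the labels say. RNA bound by a rabbit antibody against N6-methyladenosine (m6A) was sequenced in 2 libraries and RNA bound by rabbit IgG in 1. The list holds no value for a single library: a region is only a start, an end and a strand, the score is 1 throughout, and the read depth and the spread between libraries are unknown. No difference below could therefore be tested against replicate error. Neighbouring regions can come from 1 transcript and are not independent, so no p-value is given, and shares are set beside those of the other chromosomes.

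m6A is a methyl mark on adenosine that the METTL3 and METTL14 complex places on RNA, largely during transcription, and nuclear RNA holds unspliced precursors and noncoding transcripts beside messenger RNA. The pericentromeric part of chromosome 9 is one of the most duplicated parts of the human genome. Large blocks of near-identical sequence were copied there between the short arm, the long arm and other chromosomes, some in direct and some in inverted order, around a large block of satellite heterochromatin. Several gene families expanded with these copies. In RefSeq (GRCh38.p14, used for names only) chromosome 9 carries 5 of the 6 members of the CBWD family (now named ZNG1, metal chaperone genes), 5 of the 6 FOXD4 family genes, which encode forkhead transcription factors, and all 12 CNTNAP3 genes and pseudogenes, which are related to a cell adhesion protein of the neurexin superfamily. It also carries all 5 SPATA31A genes, named for their link to spermatogenesis, and all 5 pseudogenes of AQP7, a channel for water and glycerol. Not every family counted is centred there: of ANKRD20A, 5 of 20 records are on chromosome 9. All these counts are for the whole chromosome and not for the blocks. A short read from such a copy can match more than one place equally well. How the authors treated such reads is not given in the sources used here, so the copy to which a region is assigned is uncertain for every region below. No region was given a gene name or a sequence, because the annotation at hand is in another build and no hg19 sequence was used.

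The 2 blocks differed in the number of listed regions per Mb. The 9p-side block held 5.0 regions per Mb over 8.6 Mb and the 9q-side block 31.1 per Mb over 5.6 Mb. Most of that difference came from 2 dense chains in the 9q-side block, a chain being regions of 1 strand at most 10 kb apart. Outside them the 9q-side block held 76 regions, or 13.6 per Mb. No region lay between the 2 blocks, and the stretch without one ran for 18.9 Mb from 46686022 to 65576866. Within the blocks regions were also absent over long stretches. In windows of 200 kb, 23 of 43 windows of the 9p-side block and 11 of 28 of the 9q-side block were empty, and the fullest windows held 9 and 78 regions. The longest empty stretches inside the blocks were 1.14 Mb from 40633469 to 41777307 and 0.839 Mb from 65616548 to 66455252. Unplaced sequence gaps of the assembly were not separated from sequence without regions.

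**Figure D1:**
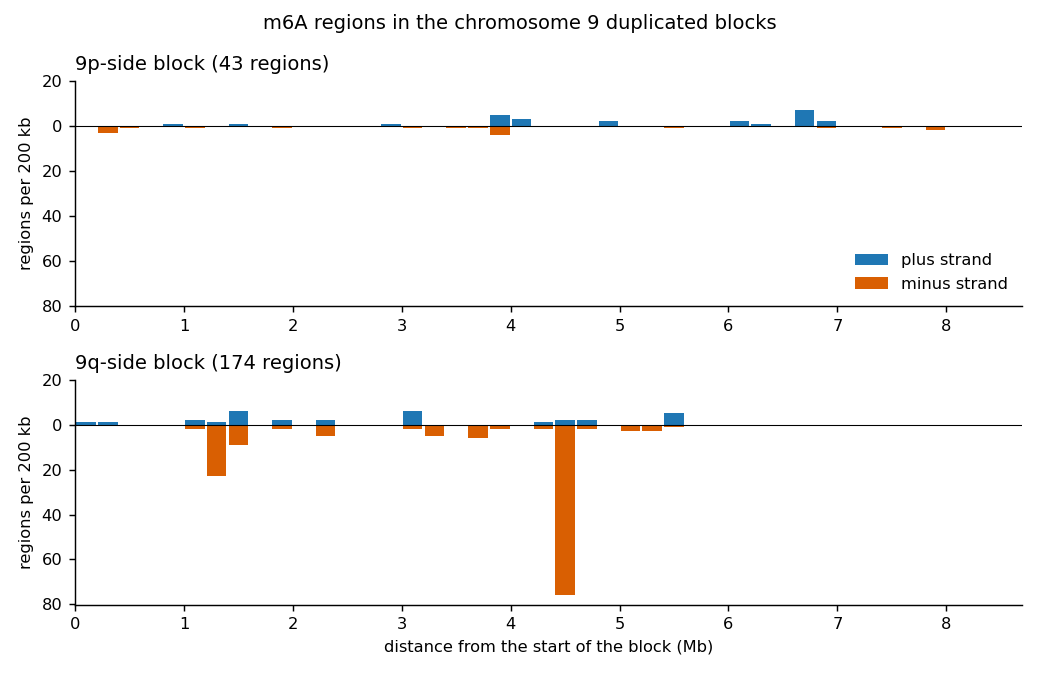
Number of m6A regions in windows of 200 kb along each block (x axis, Mb from the start of the block), plus strand upward in blue and minus strand downward in orange. The tallest bar, in the 9q-side block, belongs to a window with 78 regions, and most windows of the 9p-side block are empty.

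No region lay close outside the outer limits of the blocks. The first member, at 39086210 to 39086370, was 286 kb inside the left edge of the 9p-side block, and the nearest region outside, at 38564222 to 38564262, lay 236 kb beyond that edge. On the right edge of the 9q-side block the last member, at 70993231 to 70993264, lay 6.75 kb inside and the next region, at 71835867 to 71835920, lay 836 kb outside.

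On the minus strand lay 161 members and on the plus strand 56, so that 74.2% were minus (95% Wilson interval 68.0 to 79.6%, which covers counting error only and treats regions as independent). The rest of chromosome 9 had 58.6% over 1837 regions, and of the 24 chromosomes, with chromosome 9 taken without the members, only chromosome 8 was higher (75.1%). This excess lay in the dense chains. Without the larger of them, a cluster of 75 regions described below, the minus share was 60.6%, and without both dense chains it was 52.9% (63 of 119 regions, Wilson interval 44.0 to 61.7%, which spans an even split). The blocks leaned in different directions: 18 of 43 regions of the 9p-side block were on the minus strand (41.9%), and 45 of 76 in the 9q-side block outside the dense chains (59.2%). The Wilson intervals of these last shares, 28.4 to 56.7% and 48.0 to 69.6%, overlapped.

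The median member was about as wide as regions elsewhere, while wide members were more frequent. The members measured 19 to 426 nt, with a median of 44 nt (quartiles 32 and 61 nt), against a median of 46 nt in the rest of chromosome 9. Their median equalled the lowest of the 24 chromosomes, which ran from 44 to 47 nt. With chains of 20 or more regions left out everywhere it was 42 nt for the members and 44 to 46 nt for the chromosomes. More than 100 nt was reached by 33 members (15.2%), by 11 of those outside the dense chains (9.24%) and by 10.1% of regions in the rest of chromosome 9. The 15.2% lay above 23 of the 24 chromosomes (median 9.87%) and below Y (15.4%), and the 9.24% lay above 14 of the 24 with their large chains also left out. A width of 49 nt, the most frequent in the whole list, was held by 15 of 161 minus-strand members (9.32%) and 2 of 56 plus-strand members (3.57%), beside 11.5% and 5.18% of the regions outside the blocks. Both dense chains contributed to the wide members: of the 10 widest, 4 lay in the cluster of 75 regions, 3 in the other dense chain and 3 elsewhere.

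The members formed 73 chains. Of these, 45 were regions alone (20.7% of the members), 14 were pairs, 12 held 3 to 5 regions and 2 held 20 or more. The 2 large chains, both on the minus strand, held 98 members (45.2%). The 26 other chains of more than 1 region were evenly divided, with 13 on each strand. The share alone was higher on 14 of the 24 chromosomes and lower on 10. With chains of 20 or more regions left out everywhere, 37.8% of the members were alone, above 23 of the 24 chromosomes (median 24.5%) and below Y (38.4%).

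The cluster of 75 minus-strand regions ran from 69809229 to 69882514 and stood apart from other regions. The nearest members on either strand ended 98.0 kb before it and began 99.4 kb after it, and no plus-strand region lay within it. Its regions covered 5.35 kb of 73.3 kb (7.29%). The widths ran from 20 to 426 nt with a median of 49 nt. Regions outside the blocks had a median of 45 nt. Of the 75 regions 17 were under 30 nt, a share not counted for the list. The 14 over 100 nt (18.7%, against 10.2% outside the blocks) made up 49.6% of all covered bases. Gaps between neighbours ran from 103 to 6452 nt with a median of 448 nt and quartiles of 276 and 1200 nt, and 42 of the 74 gaps were at most 500 nt.

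Within the cluster the regions came in tight groups separated by thinly marked stretches. Joined at 1 kb, they fell into 24 groups, of which 6 held at least 5 regions and together 47 of the 75, and 11 were single regions. Taken from the upstream end of the minus strand, the first group, from 69879611 to 69882514, held 8 regions that covered 27.6% of 2.90 kb and included the widest member of all, 426 nt at 69880657 to 69881082. The second, from 69869556 to 69873243, held 7 regions over 3.69 kb (23.4% covered), among them the member of 421 nt at 69869882 to 69870302. In each of these groups 1 wide region made up about as many bases as all the others together (426 of 801 nt and 421 of 863 nt).

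A stretch with few regions followed. Between 20 and 30 kb from the upstream end only 2 regions were listed (0.85% covered), against 14 in the first 10 kb and 10 in the next. The largest gap, 6.45 kb from 69854202 to 69860655, lies there. Beyond it came the 2 groups with the most regions, 10 from 69840369 to 69845267 (20.8% of 4.90 kb, up to 229 nt wide) and 10 from 69836237 to 69839231 (18.9% of 3.0 kb, 37 to 102 nt wide). Toward the downstream end lay groups of 6 regions from 69814737 to 69816431 (18.2% of 1.70 kb) and 6 from 69809229 to 69811946 (17.6% of 2.72 kb), after a gap of 5.65 kb. The regions as a whole leaned to neither end: with the upstream end set to 0 and the downstream end to 1, their mean position was 0.51, and the wide regions (0.50, n = 14) and the others (0.52, n = 61) had nearly the same mean.

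The other dense chain held 23 minus-strand regions from 66667656 to 66699521 and had a different profile. It spanned 31.9 kb, 6.59% of it covered, with a median gap of 751 nt, and the nearest members lay 109 kb before it and 83.8 kb after it. No region was under 30 nt. Its wide regions were gathered at the upstream end: a group of 5 from 66697749 to 66699521 held only regions over 100 nt, 118 to 247 nt wide, and covered 50.2% of 1.77 kb. The mean position of its 8 wide regions was 0.27 and that of the other 15 was 0.51. A further group of 5 regions, from 66685737 to 66687634, covered 21.0% of 1.90 kb and included a region of 204 nt.

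**Figure D2:**
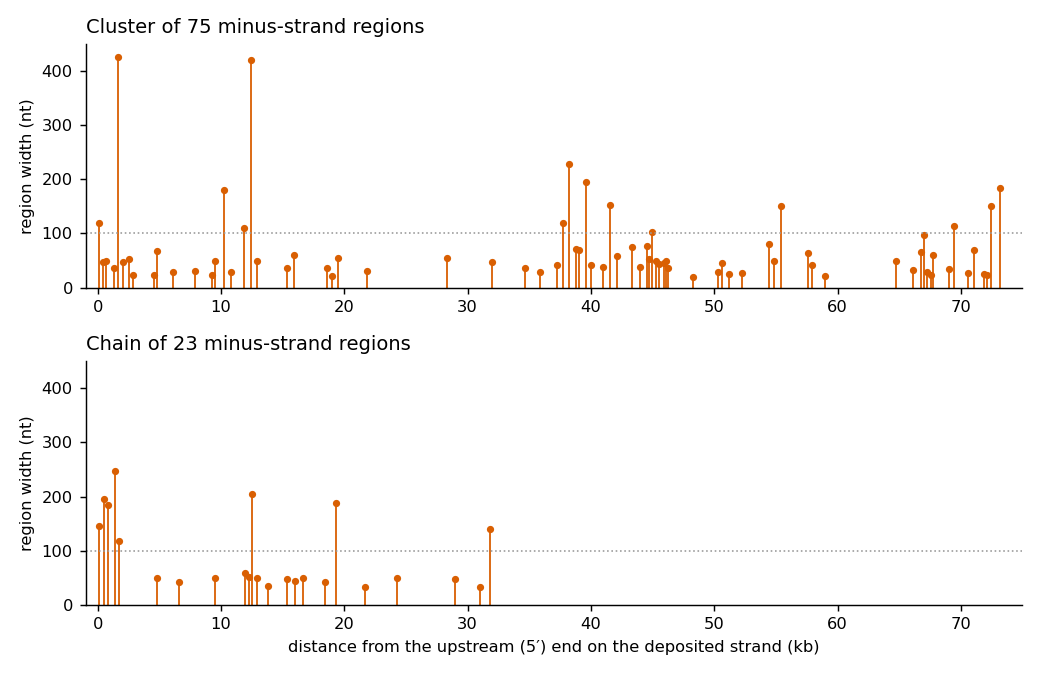
Width (y axis, nt) of each region in the 2 dense minus-strand chains against its distance from the upstream end of the deposited strand (x axis, kb), 1 stem per region, with a dotted line at 100 nt. In the cluster of 75 regions the 14 regions over 100 nt lie in several places along 73.3 kb, with stretches of narrow regions only between them, and in the chain of 23 the 5 regions nearest the upstream end are all above 100 nt.

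Both chains were compared with all 143 chains of 20 or more regions in the list. With 75 regions the cluster ranked 4th in size, and with 10.2 regions per 10 kb it ranked 14th in density, where the median chain had 5.71. Its coverage of 7.29% ranked 17th (median 3.86%), and its share of regions over 100 nt, 18.7%, ranked 57th (median 15%). The cluster was thus among the denser large chains, and its share of wide regions lay nearer the middle. The chain of 23 regions had the opposite order: it ranked 98th in size, 42nd in density with 7.22 regions per 10 kb, 23rd in coverage and 6th in the share of regions over 100 nt (34.8%). Like both of these chains, 102 of the 143 held no region of the strand opposite to their own.

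**Figure D3:**
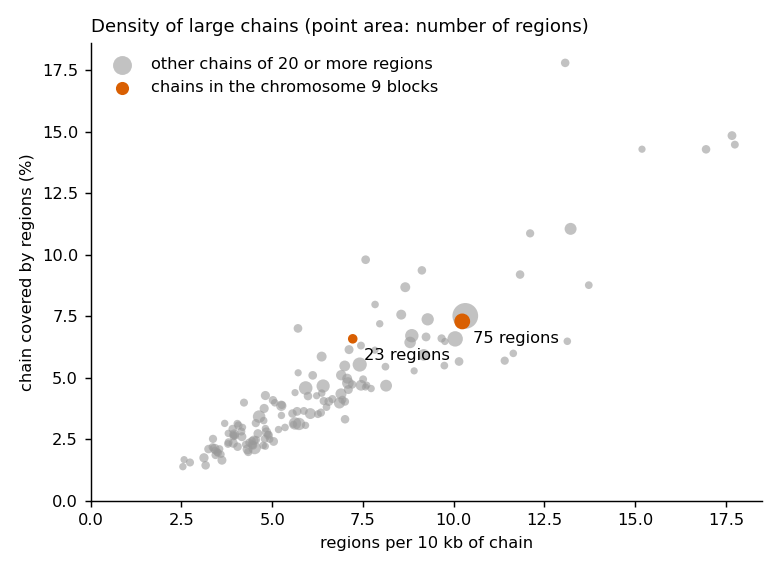
Share of each chain covered by m6A regions (y axis, %) against regions per 10 kb (x axis) for the 143 chains of 20 or more regions, with point area in proportion to the number of regions. The cluster of 75 regions (10.2 per 10 kb, 7.29% covered) sits with the denser chains, and the chain of 23 regions (7.22 per 10 kb, 6.59% covered) lies high for its density.

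Tight groups of regions were compared in the same way. The list contained 485 groups of at least 5 regions joined at 1 kb, with a median coverage of 17.0% and quartiles of 13.0 and 22.1%. The blocks, with 217 of the 41836 regions, held 9 of them, all on the minus strand of the 9q-side block. Of the 9, 6 were pieces of the 75-region cluster that the definition named and 2 of the 23-region chain, so they are not independent. Each was above that median, the lowest at 17.6%. The group of 5 wide regions at 66697749 to 66699521 ranked 4th of the 485, and the upstream group of the 75-region cluster ranked 59th. The only one outside the dense chains, at 66944315 to 66946493, held 5 regions that covered 18.7% of 2.18 kb, 2 of them over 130 nt (134 nt and 133 nt).

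Smaller groups made up the rest. In the 9p-side block the first 4 members, all on the minus strand, were spread over 202 kb from 39086210 to 39288222. Denser were 4 plus-strand regions from 42685978 to 42688550, 2 of them 113 and 236 nt wide (15.7% of 2.57 kb covered), followed by 4 minus-strand regions of 20 to 49 nt from 42793070 to 42794940 and 3 plus-strand regions from 42811610 to 42819158. In this stretch the strand changed from group to group, and within each group it did not. A plus-strand chain of 5 regions, 25 to 90 nt wide, lay from 45460478 to 45472767.

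In the 9q-side block, 5 plus-strand regions from 68411448 to 68419522 included neighbours of 195 and 172 nt. Minus-strand chains of 4 regions, none over 47 nt, lay from 67779188 to 67787011 and from 68756022 to 68772439. A trio of plus-strand regions from 70886257 to 70886857 covered 39.1% of 0.601 kb and included 1 region of 108 nt. None of the plus-strand chains of the blocks held more than 5 regions.

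Copies of a transcribed sequence would give the same spacing of regions at each copy if both were marked and both received reads. The blocks were therefore searched for runs of at least 3 regions whose starts and ends recurred elsewhere in the blocks at 1 offset, within 10 nt at each step of up to 20 kb, in direct order on the same strand or in mirrored order on the opposite strand. The search found 3 runs with 18 regions (8.29% of the members), all direct and all within the 2 dense chains. None had more than 3 regions. Outside the dense chains 0 of 119 members were in a run. Counting error alone would allow a share of up to 2.52% (3 counts of the total). That limit treats regions as independent, although members enter a run only together, and it holds for these criteria only. No mirrored run was found.

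The 3 runs were short and sparse. The first paired regions starting at 66677799, 66687250 and 66694695 with regions starting at 69863518, 69872969 and 69880414, at an offset of 3185719 nt in all 3, but the widths were 32, 51 and 49 nt in one place and 22, 49 and 47 nt in the other. Of the 14 regions from the first to the last of these at the first place, 4 had a region start within 10 nt of that offset at the second. The second (offsets of 45403 to 45409 nt) and the third (13935 to 13942 nt) lay within the 75-region cluster. The number of runs moved widely with the criteria: with starts alone required to match, 80 runs were found, and with starts and ends within 2 nt, 0.

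Other chromosomes showed the range of the same search. The rest of chromosome 9 gave 3 runs with 17 of 1837 regions (0.93%), and the median over 24 chromosomes was 0.84%. The highest share, 10.1%, came from chromosome 8, which holds the largest chain of the list, and the longest run, of 5 regions, from chromosome 16. The share in the blocks lay inside this range, above 23 of the 24 chromosomes, and it rested wholly on the dense chains. No share without large chains is at hand for the other chromosomes, so the 0 of 119 members outside the dense chains has no like background. Apart from these runs, neither the 75-region cluster nor the 23-region chain had a second set of regions at matching spacing in the blocks under these criteria. Places on other chromosomes were not searched for partners of the members.

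Relaxed to pairs of regions and a tolerance of 25 nt, a choice made after the first search was seen, 4 matches were found outside the dense chains, and 0 at 10 nt. One paired plus-strand regions of 43 and 44 nt at 45465752 and 45466265 with regions of 37 and 25 nt at 45472226 and 45472743. The offsets were 6474 and 6478 nt, and whether the sequence repeats there was not tested. Another 2 matches, which share regions with it, paired this place with the plus-strand chain at 68411448 to 68419522. The only mirrored match paired the plus-strand regions at 67791131 and 67791279 with the minus-strand regions at 69711089 and 69710961. Each rests on 2 regions, and no values of the same search for pairs in other parts of the list are at hand.

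Strands were mixed more often in the blocks, chiefly in the 9q-side block, than on the other chromosomes taken whole, except Y. Among neighbouring members with gaps above 100 nt and up to 10 kb, 135 of 149 pairs were on the same strand (90.6%, Wilson interval 84.8 to 94.3%), and outside the dense chains 39 of 53 (73.6%, 60.4 to 83.6%). The rest of chromosome 9 had 96.2% (1126 of 1170). The 24 chromosomes ran from 93.7% on chromosome 18 upward, apart from the Y chromosome with 66.7%, so the members lay below every chromosome but Y. With chains of 20 or more regions left out everywhere, the rest of chromosome 9 had 96.5%, Y 72.7% and the other chromosomes at least 93.6%, and the members (73.6%) again lay above Y only. The 9p-side block had 15 of 16 pairs on one strand (93.8%, Wilson interval 71.7 to 98.9%), within the range of the chromosomes. The 9q-side block had 120 of 133 (90.2%), and outside the dense chains 24 of 37 (64.9%, 48.8 to 78.2%). The intervals of the 9p-side block and of the 9q-side block outside the dense chains overlapped. At gaps up to 1 kb the shares were 93.1% for all members, 75% outside the dense chains and 97.9% in the rest of chromosome 9.

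Joining regions of either strand up to 10 kb apart gave 28 places with at least 2 members, of which 12 held both strands (42.9%, Wilson interval 26.5 to 60.9%). In the rest of chromosome 9 this was so for 32 of 298 (10.7%). Over the chromosomes the highest shares were 46.7% on Y and 15.5% on X. With chains of 20 or more regions left out everywhere, the share was 46.2% in the blocks, 9.49% in the rest of chromosome 9, 42.9% on Y and 14.3% on X. The order of the blocks and Y was thus reversed. The chains left out were unlike: those of the blocks held no region of the other strand, and those of Y held 26 and 24. The 9p-side block had 1 such place of 8 and the 9q-side block 11 of 20. At a joining distance of 1 kb the share was 20% in the blocks and 3.01% in the rest of chromosome 9, and at 50 kb it was 44.0% and 29.1%.

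The mixed places were small. In the order of the chromosome, 5 regions from 66971025 to 66973673 alternated strictly between plus and minus within 2.65 kb, with widths of 42 to 97 nt. In order of their starts 4 regions from 67318272 to 67321835 also alternated within 3.56 kb, but the middle minus-strand and plus-strand regions overlap by 48 nt. Other places joined a group of one strand to a single region of the other: 5 plus-strand regions and 1 minus-strand region from 68411448 to 68427393, and 3 plus-strand regions and 1 minus-strand region from 66825479 to 66833511. Neither dense chain took part in a mixed place.

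Regions of opposite strand overlapped by at least 1 nt in 6 pairs, which involved 11 members (5.07%, Wilson interval 2.85 to 8.85%). That interval treats members as independent, although each enters only together with a partner, so it is too narrow. The rest of chromosome 9 held 1 such pair with 2 of its 1837 regions (0.11%). Thus 6 of the 7 pairs of chromosome 9 lay among the 10.6% of its regions that are in the blocks. Over the 24 chromosomes the median share was 0.81% and the highest were 22.0% on Y and 4.61% on chromosome 18, which lies inside the interval of the members. With chains of 20 or more regions left out everywhere, it was 9.24% for the members, 0.12% in the rest of chromosome 9 and 14.4% on Y, with chromosome 18 again next at 4.61%.

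Mixing of strands at single loci was not particular to chromosome 9. Among the 143 large chains, 9 had at least 5 regions of the other strand within their limits. Chromosome 2 and Y each gave a plus-strand and a minus-strand chain over the same place, so the 9 chains are fewer places. On chromosome 2 a chain of 52 minus-strand regions from 92269078 to 92325754 held 55 plus-strand regions, and on Y a chain of 31 minus-strand regions from 13446524 to 13490086 held 26. A plus-strand chain of 22 regions that starts at 22244817 of chromosome 17 held 7, and a minus-strand chain of 22 that starts at 42527496 of chromosome 10 held 5. Chains on chromosomes 11 and 6 held 6 each, and a chain on chromosome 16 held 5. The blocks were not compared as a whole with such places, and neither of their own dense chains held a region of the other strand.

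In 4 of the 6 pairs the narrower region lay wholly inside the wider one. At 69710965 to 69711214 a plus-strand region of 250 nt, the widest plus-strand member, overlapped 2 minus-strand regions of 24 and 62 nt. At 66833158 a plus-strand region of 50 nt enclosed a minus-strand region of 40 nt, and at 67320762 a minus-strand region of 71 nt enclosed a plus-strand region of 48 nt. The other pairs were at 70010012 (42 nt plus, 26 nt minus) and, alone in the 9p-side block, at 45729206 (39 nt plus, 23 nt minus). None of the 5 places of overlap lay within a dense chain. The part that reads shared between copies have in this mixing was not tested.

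**Figure D4:**
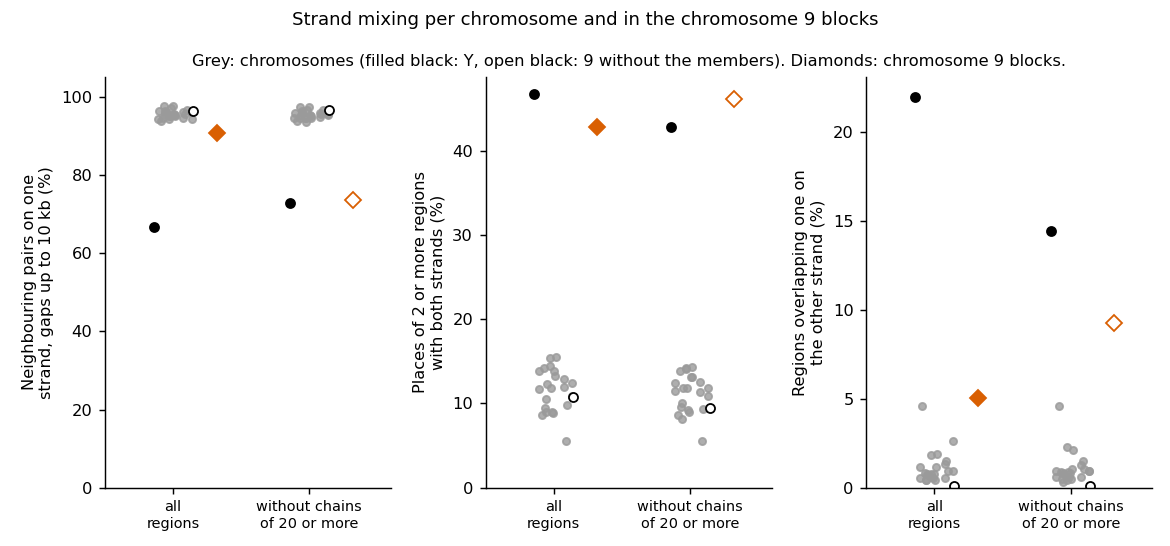
Measures of strand mixing (y axes, %), 1 per panel: neighbouring pairs on one strand with gaps up to 10 kb, places of at least 2 regions that hold both strands, and regions that overlap one on the other strand. Grey points are chromosomes, with Y in filled black and chromosome 9 without the members in open black, and diamonds are the members, on the left with all regions and on the right with chains of 20 or more regions left out of members and chromosomes alike. On both sides of each panel the members lie outside the range of the grey points, on the side of Y (in the panel of overlaps by 5.07 against 4.61% on the left).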

How the data were processed

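Per the labels, the RNA came from nuclei of MDA-MB-231 and was bound by an m6A antibody (2 libraries) or by IgG (1 library). The submitters' processing notes name Bowtie2 as the tool and hg19 as the build. Not given in the sources used here are the peak caller, thresholds, use of IgG, treatment of reads with several matches and merging of libraries. The score deposited by the authors is 1 in every region, and the deposited start and end are the only measurements.

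Positions are hg19, counted from 1. Width is end minus start of the deposited record. Chains were built from same-strand regions with gaps of up to 10 kb, and tight groups with gaps of up to 1 kb. Overlap between strands required 1 nt. The functions were tested on simulated data with planted copies and chains, and returned 20 of 20 direct copies, 20 of 20 mirrored copies and 300 of 300 chains. The planted copies lay far apart and were shifted by less than the tolerance, so this shows only that the code runs as written. How often runs arise by accident in dense chains was not measured. Wilson intervals are at 95%, cover counting error only and treat the regions, pairs or places counted as independent, which neighbours are not. Places named are the 10 largest chains, the 10 widest members, the groups of at least 5 regions, the overlaps, the repeated runs and the regions at the block edges; smaller places were named after their values were seen. The members and lists were chosen with earlier results of these data known. Gene family names were counted in RefSeq GRCh38.p14 only. Software: pandas 2.3.3 and numpy 2.4.6 under Python 3.11.15, with matplotlib 3.10.9 for plots and scipy 1.17.1 for intervals.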

Additional observations from a re-analysis of the deposited data

How the results depend on the processing

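Of 34 alternatives, 15 left a value within its interval or within 1.5 times the count, among them every change of the block edges. The minus-strand share of the members, 74.2%, was 83.2% among regions wider than the list's median, 57.5% with each chain counted once, 60.6% without the cluster of 75 regions and 52.9% without both dense chains (Wilson interval 44.0 to 61.7%). The number of chains, 73, became 130 at a joining distance of 1 kb, and the largest piece of the 75-region cluster held 10 regions at 1 kb and 42 when only regions wider than the median were used; fewer regions are joined by construction. The 3 runs of repeated spacing with 18 members became 0 runs and 0 members at a tolerance of 2 nt, with at least 4 regions and without both dense chains, 31 runs with 71 members at 25 nt, and 80 runs with 97 members with starts alone. The share of neighbouring members on one strand, 90.6%, was 73.6% without both dense chains. The share of places with both strands, 42.9%, was 20% at 1 kb. Alternatives without both dense chains or other large chains, and all those on places with both strands, were chosen after seeing the data. No paired analysis was possible because the regions carry no values of single libraries, and for the same reason no library could be left out. Depth and enrichment over IgG are unknown for every region.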
